A study of Arabidopsis thaliana with 9 samples.

Results

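Root tips of a triple and a quadruple HD-ZIP III mutant of Arabidopsis thaliana were compared together with wild type, to find the transcripts that both mutants changed in the same direction. All 9 arrays of the study entered the comparison: 6 mutant arrays, 3 of each genotype, against 3 wild-type arrays. The 2 mutant means were given equal weight, so the pooled change is the average of the triple change and the quadruple change. Wild type was Col er-2, which carries the er-2 allele; the labels do not state whether the mutants carry it too. The triple mutant was cna-2 phb-13 phv-11. The quadruple mutant carried cna-2, phb-13, a phv allele and rev-6. Its title gives phv-11 and its genotype field gives phv-6. The title also writes the phb allele as phb1. Quadruple homozygotes were picked, by their radial cotyledons, from a population segregating for rev-6. Both mutants therefore share lesions in 3 genes, CNA, PHB and PHV, and the quadruple mutant adds REV. Each sample was RNA of pooled primary root tips, hand-dissected to 0.5 mm at 4 days post germination from untreated seedlings, and hybridised to a 1-colour Affymetrix ATH1 array.

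HD-ZIP III proteins are plant transcription factors with a homeodomain and a leucine zipper, and a microRNA limits their transcripts to part of the organ. In the root they act in the vascular cylinder, where they are known for their role in xylem cell fate and in the patterning of the stele. Members of the family overlap in function, which is why several are mutated together.

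Values are log2 RMA signals of probe sets, the groups of oligonucleotides that each report 1 transcript or a few. A probe set was called when its pooled change had an adjusted p under 0.05 in limma, fitted to all 9 arrays with Benjamini-Hochberg adjustment over 22746 probe sets. A called change was counted as shared when both mutants moved in the same direction and all 6 mutant arrays lay on one side of all 3 wild-type arrays. In a bulk sample, fewer cells of a type and less RNA per cell cannot be told apart. The array medians were 5.89, 5.79 and 5.82 in wild type and between 5.91 and 5.95 in the mutants. That difference of 0.0948 had a two-sided exact permutation p of 0.0119, the smallest that 84 arrangements can give. Its part in the results below was examined only by centring the arrays and, separately, by quantile normalization. Wild-type array 1 lay nearest to the mutants: 419 of its probe sets were more than 0.5 from the mutant mean, against 1787 of array 2 and 1573 of array 3.

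In the fit reported here the mutants shared few changes, most of them increases, but the number and the direction moved with the setting. Of all probe sets, 37 (0.163%) were called, 31 of them higher (0.136%) and 6 lower (0.0264%) in the mutants. At an unadjusted p under 0.05 there were 2755. Of the 37, 32 moved in the same direction in both mutants, and 25 (0.11% of all probe sets) were shared: 22 higher and 3 lower. The median pooled change of the 22 higher probe sets was 0.71, with medians of 0.83 in the triple mutant and 0.67 in the quadruple. Over all probe sets those 3 medians were -3e-04, -0.0174 and 0.0049. A change of at least 2-fold in both mutants was found for 4 of the 25: QQS, AT5G17340, PHV and a decrease with no listed gene. Of the 25, 12 have a single listed gene, 12 have no gene listed in the annotation used here and 1 matches several genes.

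The number of calls depended on single arrays. It was 307 without wild-type array 1, 4 without wild-type array 2 and 6 without wild-type array 3. Leaving out 1 mutant array gave 11, 8 and 15 calls for triple arrays 1, 2 and 3, and 7, 13 and 7 for quadruple arrays 1, 2 and 3. The shared count ranged from 3 to 286 over the same 9 fits. When every array was centred on its own median, 15 probe sets were called, 7 higher and 8 lower, and 9 of the 25 shared changes were still called. Centring moved the median pooled change over all probe sets from -3e-04 to -0.0951. It thus lowered every pooled change by the same amount, which itself favours decreases among the calls. Quantile normalization of the uncentred values, with a median pooled change of -0.0057, gave 15 higher and 8 lower. The shared changes were 6 higher and 6 lower after centring, and 11 higher and 6 lower after quantile normalization. With the replicate number as a block, which the labels do not explain, 145 were shared, 126 higher and 19 lower.

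**Figure D1:**
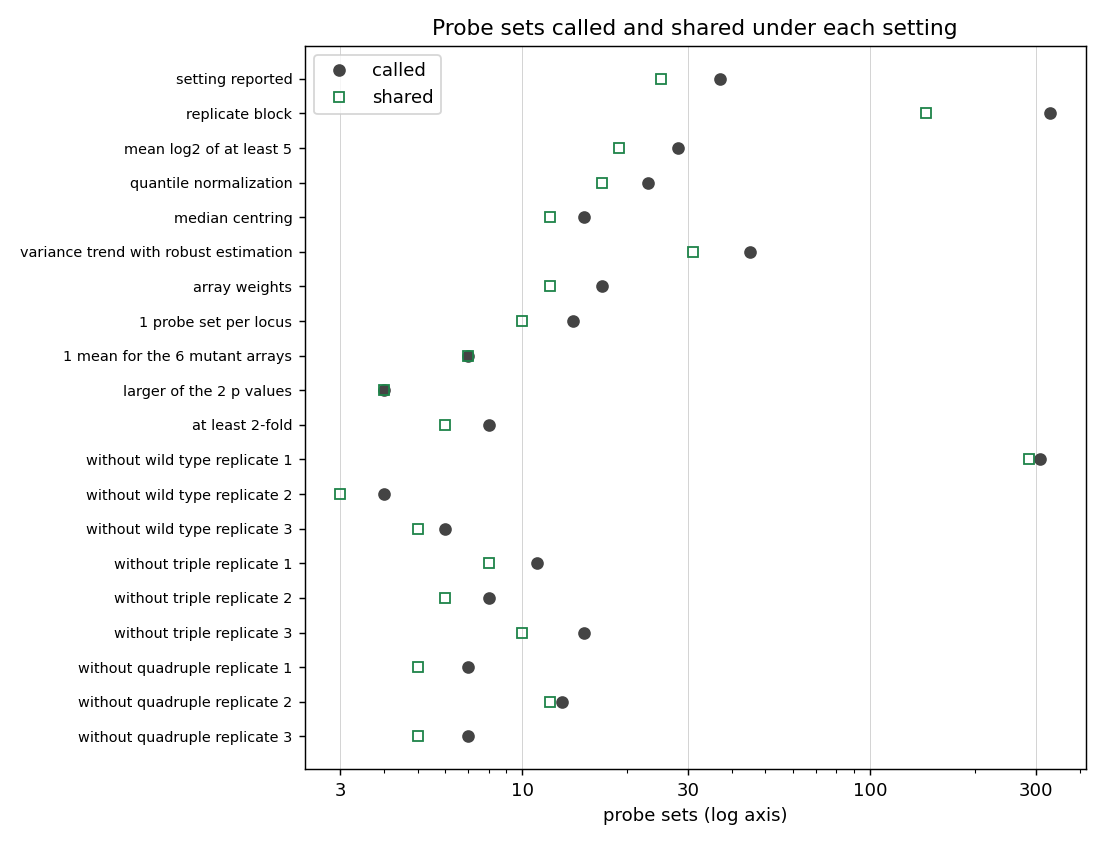
Number of probe sets called (filled circles) and shared by both mutants (open squares), on a log axis, for the reported setting and for each alternative. The reported 37 called and 25 shared lie between 4 called without wild-type array 2 and 329 called with the replicate number as a block.

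PHV, 1 of the mutated HD-ZIP III genes themselves, had the lowest p of all called probe sets, and it serves as a check of the labels. The PHV probe set read 7.27, 7.14 and 7.28 in wild type, 4.71, 4.77 and 4.76 in the triple mutant, and 5.20, 5.22 and 5.03 in the quadruple mutant. All 6 mutant arrays were low, with a gap of 1.92 to the lowest wild-type array. The pooled change was -2.28 (SE 0.07), a 4.85-fold decrease, with a limma adjusted p of 5.31e-07. PHV was lower in the triple than in the quadruple mutant, by 0.40 (95% interval 0.21 to 0.59, limma adjusted p = 0.0405). No other HD-ZIP III gene is reported here, so CNA, PHB and REV do not check the labels.

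QQS, which has no relatives outside its species and affects starch and protein content, had the largest pooled change of the 37 called probe sets. Its values were 5.65, 4.07 and 3.90 in wild type, 11.95, 11.67 and 11.65 in the triple mutant, and 9.88, 9.75 and 9.65 in the quadruple mutant. The lowest mutant array lay 4.01 above the highest wild-type array. The wild-type arrays themselves were spread (SD 0.96), with array 1 higher than the other two, while the mutants were tight (SD 0.16 and 0.11). QQS rose by 6.22 (SE 0.31) on the log2 scale, 74.6-fold, with a limma adjusted p of 1.45e-05. No detection calls were used here, so this is the ratio of the signals, and the wild-type signal may be at background. The rise was 7.22 in the triple mutant and 5.22 in the quadruple, and this difference of -1.998 passed as well (95% interval -2.81 to -1.19, limma adjusted p = 0.0204).

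The F-box family gene AT2G32560, from a family whose members pick proteins for ubiquitination, rose by nearly the same amount in both mutants. Its values were 5.59, 5.62 and 5.66 in wild type, 6.28, 6.39 and 6.36 in the triple mutant, and 6.38, 6.24 and 6.36 in the quadruple mutant. The groups were separated by 0.573. The pooled rise was 0.71 (SE 0.07), 1.64-fold, with a limma adjusted p of 0.00525. The mutants differed by -0.015 with a 95% interval of -0.19 to 0.16. A second probe set of AT2G32560 read between 2.75 and 3.06 on every array and did not pass (change 0.10, limma adjusted p = 0.642).

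The larger of the 2 single-mutant p values was also adjusted over all probe sets, a stricter rule than passing in each mutant alone. By this rule 4 probe sets remained of the 25. They were those of PHV (limma adjusted p = 5.70e-06), QQS (3.35e-04) and AT2G32560 (0.0272), and a low probe set with no gene listed in the annotation used here. That last probe set read 8.80, 8.72 and 8.87 in wild type, 7.02, 7.17 and 6.91 in the triple mutant, and 7.01, 6.86 and 6.85 in the quadruple mutant. Its pooled change was -1.83 (limma adjusted p = 7.43e-06), of which the triple showed -1.76 and the quadruple -1.89. PHV, QQS and this probe set were also the 3 shared changes called in all 9 fits that left out an array. AT2G32560 was called in 8 of those fits and missed without wild-type array 2 (limma adjusted p = 0.0508). Not among the 4 were increases with no listed gene that passed in each mutant alone. Their limma adjusted p values were 0.0207 and 0.0371 in the triple mutant and 0.0326 for both in the quadruple.

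The other 9 shared increases with a single listed gene were all smaller than that of QQS, and each was lost in at least 2 of the 9 fits without 1 array. Each of these 9 passed in the triple mutant alone. None passed in the quadruple mutant alone, with limma adjusted p values from 0.0576 to 0.564. Their plotted array values show wild type below both mutants for each gene, with very different margins. Wild-type means were low for AT5G17340 (4.09), AT1G65690 (4.20), AT2G24560 (3.93) and SWEET2 (4.46), beside 4.54 for QQS. These named genes fall out under a minimum mean of 5. As for QQS, their wild-type signal may be at background, and their changes are ratios of the signals.

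**Figure D2:**
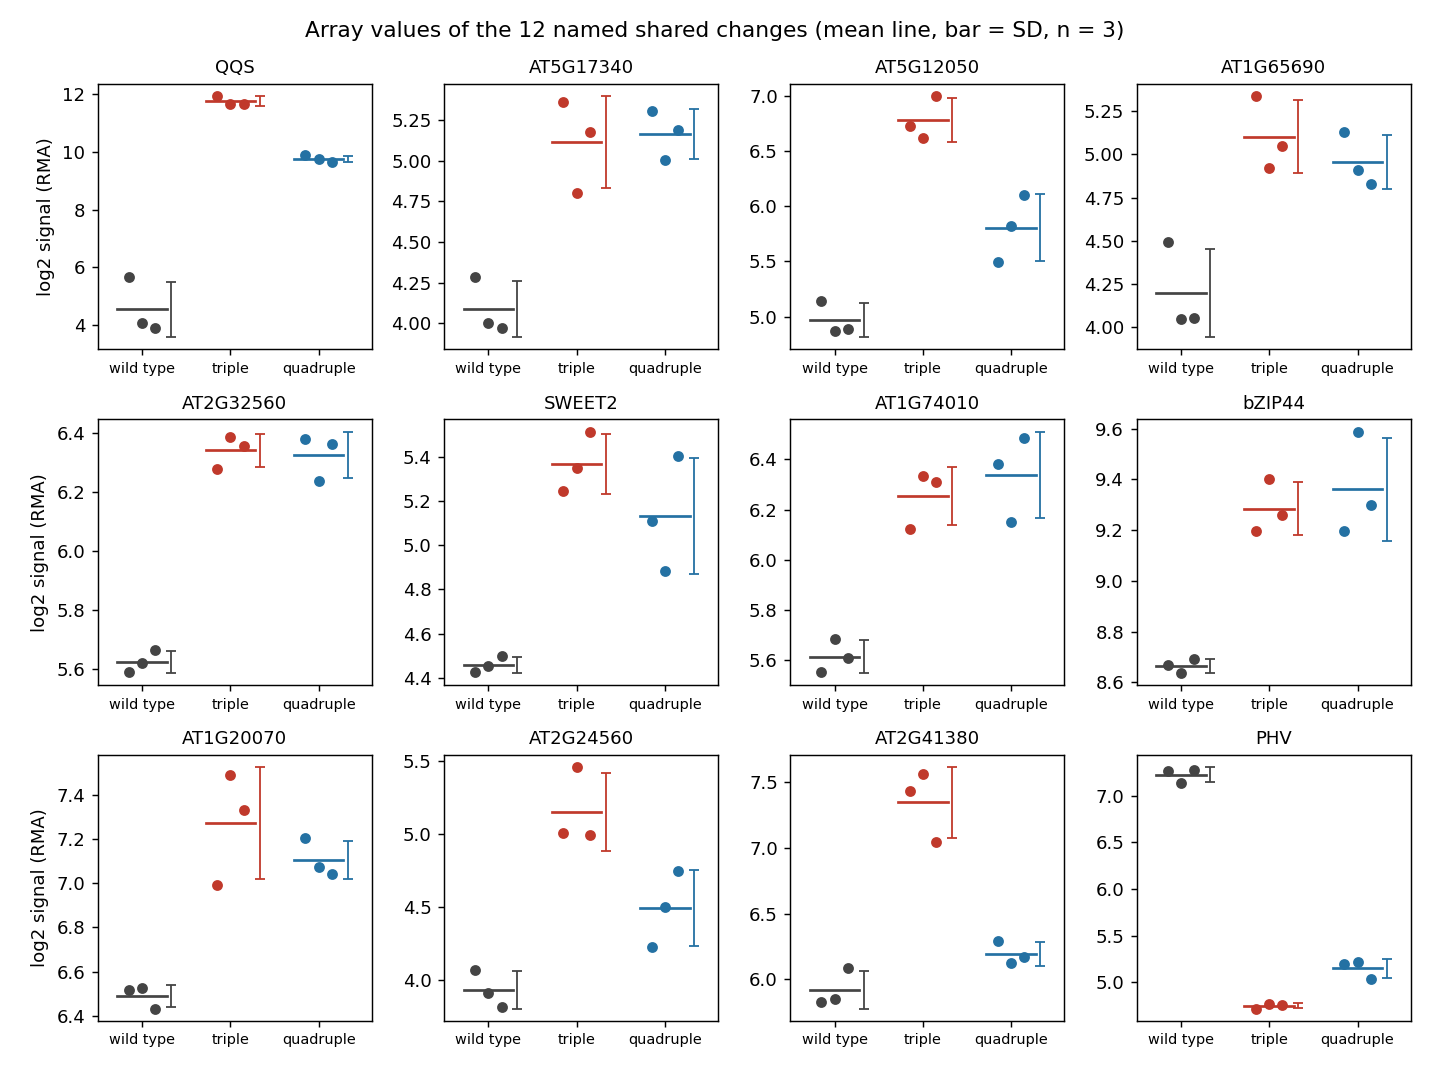
Log2 RMA signal on each array for the 12 shared changes with a single listed gene, by genotype; points are arrays, lines are means and bars are SD (n = 3). QQS spans from 3.90 to 11.95, PHV is the 1 gene with the mutants low, and AT2G41380 has the narrowest gap between wild type and the quadruple mutant.

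Transport and transcription genes were among them. SWEET2, a sugar transporter of the SWEET family, read 4.43, 4.45 and 4.50 in wild type, 5.24, 5.35 and 5.51 in the triple mutant, and 5.11, 4.88 and 5.41 in the quadruple mutant. It rose 1.73-fold (0.79, SE 0.11, limma adjusted p = 0.0311), by 0.91 in the triple mutant and 0.67 in the quadruple. The bZIP transcription factor bZIP44 read 8.67, 8.64 and 8.69 in wild type, 9.20, 9.40 and 9.26 in the triple mutant, and 9.20, 9.59 and 9.30 in the quadruple mutant. bZIP44 rose 1.58-fold (0.66, SE 0.10, limma adjusted p = 0.0358), and the 95% interval of the quadruple minus triple difference ran from -0.17 to 0.32. After median centring, which lowers every pooled change, neither gene was called (limma adjusted p = 0.0680 for SWEET2 and 0.0886 for bZIP44). After quantile normalization both were called (limma adjusted p = 0.0405 for SWEET2 and 0.0426 for bZIP44). SWEET2 passed in 2 and bZIP44 in 1 of the 9 fits without an array.

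Genes of enzyme families made up a further group. AT1G74010, a strictosidine synthase-like gene, read 5.55, 5.68 and 5.61 in wild type, 6.12, 6.33 and 6.31 in the triple mutant, and 6.38, 6.15 and 6.48 in the quadruple mutant. It rose by 0.68 (SE 0.09, limma adjusted p = 0.0301). AT2G24560, which encodes a GDSL-type esterase or lipase, read 4.07, 3.91 and 3.82 in wild type, 5.01, 5.46 and 4.99 in the triple mutant, and 4.23, 4.50 and 4.75 in the quadruple mutant. Its rise of 0.89 (SE 0.14, limma adjusted p = 0.0455) was 1.22 in the triple mutant and 0.56 in the quadruple, with a difference of -0.66 (95% interval -1.01 to -0.31) that did not pass after adjustment (0.0714). AT2G41380, a methyltransferase gene, read 5.83, 5.85 and 6.08 in wild type, 7.43, 7.56 and 7.05 in the triple mutant, and 6.29, 6.12 and 6.17 in the quadruple mutant. The quadruple arrays lay only 0.0373 above the highest wild-type array. Its pooled rise of 0.85 (SE 0.12, limma adjusted p = 0.0301) joined 1.42 in the triple with 0.27 in the quadruple mutant. The quadruple change alone did not pass (95% interval -0.025 to 0.57, limma adjusted p = 0.564), so the pooled call of AT2G41380 came from the triple mutant. The mutants differed by -1.15 (limma adjusted p = 0.00180). None of these enzyme genes was called after median centring or after quantile normalization.

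The remaining shared increases with a single listed gene were those of AT5G17340, AT5G12050, AT1G65690 and AT1G20070. AT5G17340 read 4.29, 4.00 and 3.97 in wild type, 5.36, 4.80 and 5.18 in the triple mutant, and 5.31, 5.004 and 5.19 in the quadruple mutant. It rose 2.07-fold (1.05, SE 0.13, limma adjusted p = 0.0250), by 1.03 in the triple mutant and 1.08 in the quadruple. The arrays of the 2 mutants overlapped each other and lay 0.517 above wild type. AT5G12050 read 5.15, 4.87 and 4.89 in wild type, 6.73, 6.62 and 7.002 in the triple mutant, and 5.50, 5.82 and 6.10 in the quadruple mutant. It rose 2.51-fold (1.33, SE 0.14, limma adjusted p = 0.00635), and the triple exceeded the quadruple mutant on every array, with a difference of -0.98 (limma adjusted p = 0.0111). AT1G65690 read 4.49, 4.05 and 4.05 in wild type, 5.34, 4.92 and 5.05 in the triple mutant, and 5.13, 4.91 and 4.83 in the quadruple mutant, a rise of 0.83 (SE 0.13, limma adjusted p = 0.0461). AT1G20070 read 6.52, 6.52 and 6.43 in wild type, 6.99, 7.49 and 7.33 in the triple mutant, and 7.21, 7.07 and 7.04 in the quadruple mutant, a rise of 0.70 (SE 0.11, limma adjusted p = 0.0455). AT1G65690 and AT1G20070 were called neither after median centring nor after quantile normalization.

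The 13 shared probe sets without a single listed gene comprised 11 increases, from 0.56 to 1.47 on the log2 scale, and 2 decreases. Besides the probe set at -1.83, the other decrease read 8.09, 8.11 and 8.27 in wild type, 7.32, 7.001 and 7.30 in the triple mutant, and 7.78, 7.78 and 7.88 in the quadruple mutant. Its pooled change was -0.65 (limma adjusted p = 0.0308). PHV was thus the 1 shared decrease that could be given a gene name.

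Wild-type array 1 was the array nearest to the mutants for 11 of the 22 shared increases, array 2 for 7 and array 3 for 4. Of the named increases, QQS, AT5G17340, AT5G12050, AT1G65690 and AT2G24560 had their highest wild-type value on array 1. The part of that array in these results can be read from the fits: without it all 25 shared changes were called, and without array 2 only 3 were.

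Whether the mutants moved by the same amount was asked with the quadruple minus triple contrast of the same fit. Over all probe sets 504 (2.22%) differed between the mutants. Of the 25 shared changes 9 did, each with the larger change in the triple mutant. These included PHV, QQS, AT5G12050 and AT2G41380. The other 16 had differences from -0.66 to 0.31 with 95% interval half-widths of 0.179 to 0.353, which does not show that both mutants changed by equal amounts. Counting the point values alone, the triple showed the larger change in 18 of the 25 and the quadruple mutant in 7.

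**Figure D3:**
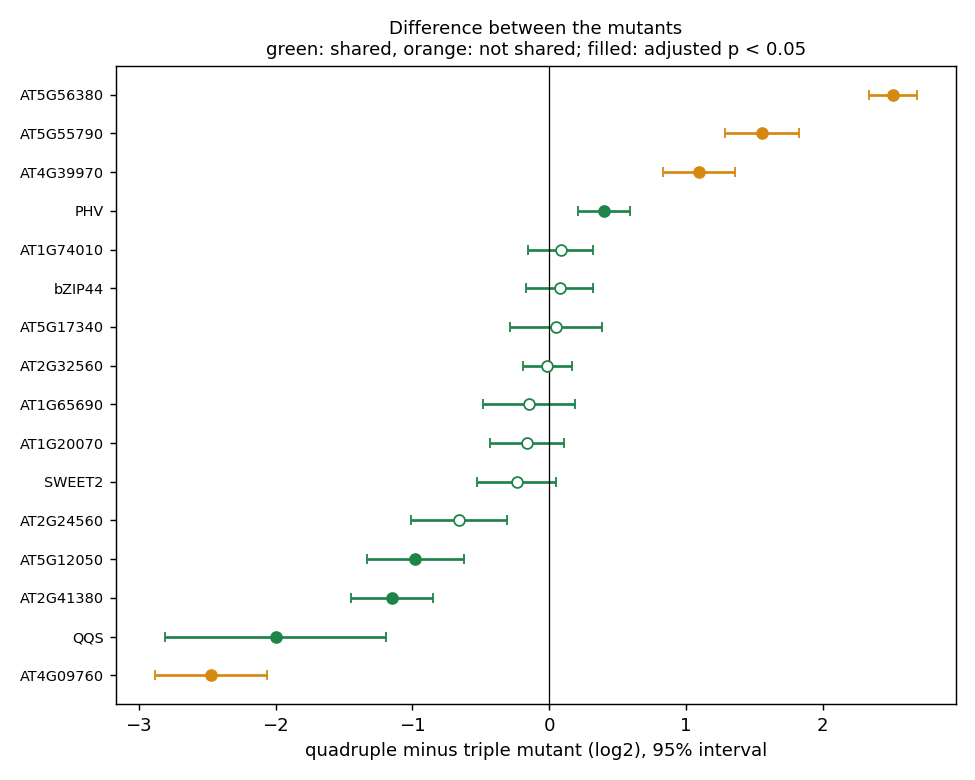
Quadruple minus triple mutant difference on the log2 scale with its 95% interval for the 16 called probe sets with a single listed gene; green marks shared and orange not shared, and filled points passed at an adjusted p under 0.05. AT2G32560 lies at -0.015 and AT5G56380 at 2.51.

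A pooled call could also come from 1 mutant. Of the 37 called probe sets 12 were not shared, and all 12 differed between the mutants. In 11 of them the triple mutant had the larger change. The sharing rule leaves out probe sets in which 1 mutant did not move clear of wild type in the same direction. A difference between the mutants among these 12 is thus largely fixed by that selection. The 4 with a single listed gene, named after their values were seen, were AT5G56380, AT5G55790, AT4G39970 and AT4G09760. AT5G56380, an F-box family gene, read 6.13, 6.15 and 6.05 in wild type, 3.99, 3.93 and 3.86 in the triple mutant, and 6.38, 6.47 and 6.47 in the quadruple mutant. Its pooled change of -0.93 (SE 0.07, limma adjusted p = 4.94e-04) was thus the average of -2.18 and 0.33. AT4G09760, a choline kinase gene, averaged 2.31 in the triple mutant and -0.16 in the quadruple to a pooled 1.08 (limma adjusted p = 0.0439). AT5G55790 averaged -1.56 and -0.0022, and AT4G39970, which encodes a haloacid dehalogenase-like hydrolase, averaged -1.28 and -0.19.

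**Figure D4:**
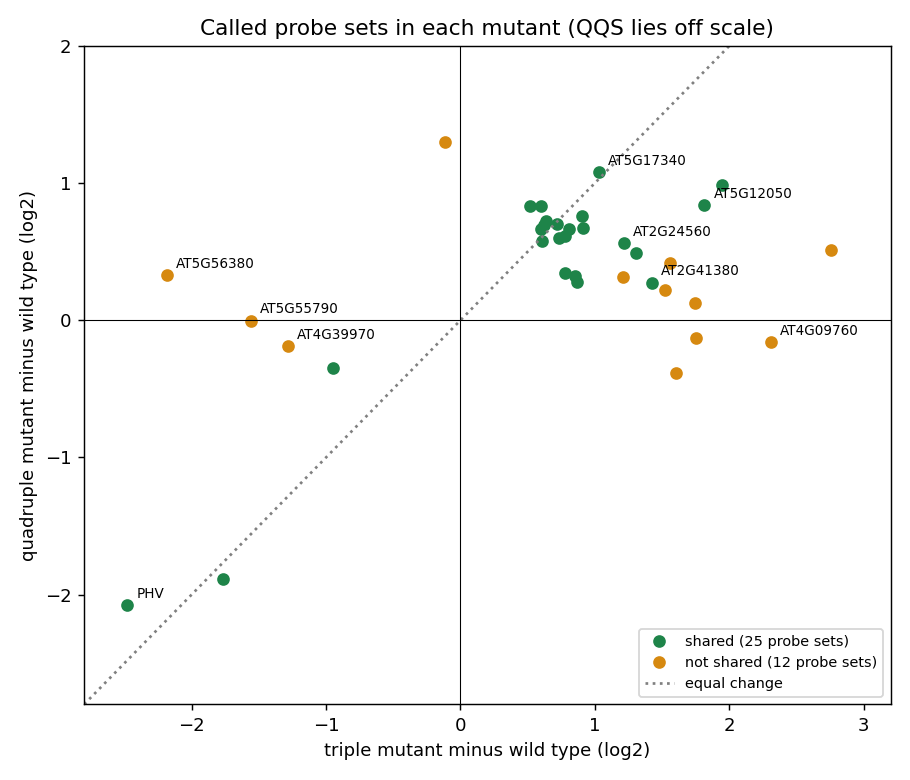
Change from wild type (log2) in the triple mutant, on the x axis, against that in the quadruple mutant, on the y axis, for the called probe sets; green marks the 25 shared and orange the 12 not shared, and the dotted line marks equal change. QQS is off scale at 7.22 and 5.22, and 11 of the 12 orange points show a larger change in the triple mutant. Both axes use the same wild-type arrays.

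Many more probe sets had the 6 mutant arrays apart from the 3 wild-type arrays than were called. There were 967 (4.25%), with 489 higher and 478 lower, and 25 of them were called. Among the 13355 loci of 1 listed gene, 539 (4.04%) had the arrays apart, 240 higher and 299 lower. Of the same 13355 loci 16 (0.12%) were called, with the arrays apart or not. Among the genes with the arrays apart that did not pass, those with the lowest p values were listed. On the higher side they were MT1C, a metallothionein, with a change of 0.73 (SE 0.12, limma adjusted p = 0.0598), AT3G48970 with 0.81 (0.0636), AT3G57010 with 0.70 (0.0636) and the gibberellin receptor GID1B with 0.58 (0.0645). GID1B was at 0.78 in the triple mutant and 0.38 in the quadruple. On the lower side 14 genes were listed by the same rule, with changes from -0.93 to -0.32 and limma adjusted p values from 0.0636 to 0.132. They were AT3G56810 at -0.65, the dynamin-like gene DL1B at -0.38, AT5G35940 at -0.93, AT4G39230 at -0.41, TRM23 at -0.37 and AT3G56500 at -0.49, with AT5G39630, AT3G23760, AT3G54040, AT2G40960, AT2G18480 and 3 loci annotated as pseudogenes (AT2G14630, AT2G04770 and AT1G42580). With the replicate number as a block, which the labels do not explain, 10 of the 20 named genes that did not pass were called.

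Gene lists covered vascular, hormone and stem-cell genes tied to HD-ZIP III function in the root. They also covered many families and processes without such a tie, the carbon and sugar transporter lists among them. Of 64 lists, 39 had at least 3 measured genes and 8 had none, and 3 held a called gene: the HD-ZIP III list with PHV, the carbon list with QQS and the SWEET list with SWEET2.

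The counts of these lists are read against the 13355 loci of 1 listed gene, of which 0.12% were called and 4.04% had the arrays apart; at those shares a short list with neither is no result about its genes.

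Of 5 measured xylem regulators and wall enzymes (LHW, GUT1, GUT2, IRX15 and LAC16) none was called and none had the arrays apart, with a median change of -0.07. LHW, a bHLH factor of vascular initiation, was at 0.13 in both mutants. In the procambium list 1 of 3 genes, MOL1, had the arrays apart, at 0.17, and was not called. CLE41 of the same list, the precursor of the peptide that keeps vascular stem cells dividing, was at 1.28 in the triple mutant and -0.26 in the quadruple. Its pooled change of 0.51 did not pass (limma adjusted p = 0.292), and the difference between the mutants did (0.00201).

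Aux/IAA proteins hold back the auxin response, and of 7 measured genes of this family none was called and none had the arrays apart. IAA20 read 6.60, 6.48 and 6.23 in wild type, 6.10, 5.95 and 6.06 in the triple mutant, and 6.65, 6.88 and 6.78 in the quadruple mutant. The mutants lay on opposite sides of wild type, so the pooled change was -0.03 (95% interval -0.25 to 0.18, limma adjusted p = 0.914), while the difference between the mutants was 0.74 (limma adjusted p = 0.00759). IAA30 read 6.20, 5.57 and 5.70 in wild type, 5.83, 5.80 and 5.63 in the triple mutant, and 5.81, 5.96 and 5.93 in the quadruple mutant. Its wild-type arrays spanned the whole range of the mutant arrays, and the change was 0.0046 (limma adjusted p = 0.990).

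Of 9 measured cytokinin genes none was called, and 2 had the arrays apart, against 4.04% of all loci. These were UGT76C1 and UGT76C2, the enzymes that inactivate cytokinins by N-glucosylation. UGT76C1 read 4.95, 4.82 and 4.72 in wild type, 5.36, 5.25 and 5.32 in the triple mutant, and 5.31, 5.05 and 5.35 in the quadruple mutant, a difference of 0.45 (limma adjusted p = 0.104). UGT76C2 read 6.23, 6.10 and 6.09 in wild type, 6.34, 6.52 and 6.66 in the triple mutant, and 6.54, 6.78 and 6.92 in the quadruple mutant, a difference of 0.49 (limma adjusted p = 0.119). ARR15, a negative regulator of cytokinin signalling, was at 0.29 in the triple mutant and 0.96 in the quadruple (pooled 0.62, limma adjusted p = 0.186). The list median was -0.03.

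The list of SWEET and other sugar transporters had 19 measured genes, of which SWEET2 alone was called and 2 had the arrays apart, with a median of -0.12 beside -3e-04 over all probe sets. SWEET14 was at -0.33 with the arrays apart (limma adjusted p = 0.198), and SWEET13 was at -0.67 (limma adjusted p = 0.234). In the carbon list of 8 genes, QQS alone was called. ICL, the isocitrate lyase of the glyoxylate cycle, was at 2.26 in the triple mutant and -0.39 in the quadruple.

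Nitrogen transport held 2 genes of 12 with the arrays apart, both higher and neither called, beside 4.04% of all loci apart. AT2G26690, of the nitrate and peptide transporter family, read 4.58, 3.83 and 4.24 in wild type, 5.15, 5.29 and 5.70 in the triple mutant, and 5.04, 4.85 and 5.37 in the quadruple mutant. The difference of 1.02 was close to the 1.05 of AT5G17340, but the wild-type arrays were more spread and the limma adjusted p was 0.0676. GTR2, a glucosinolate transporter of that family, was at 0.66 (limma adjusted p = 0.153).

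Stem-cell niche genes were measured by AGL21, BBM, AGL42 and CLE40, of which none was called and none had the arrays apart. Every array is of root tip, so these genes cannot check the root-tip label. Their array means spanned 6.495 to 6.70 for wild type, 6.33 to 6.61 for triple and 6.89 to 7.10 for quadruple arrays. No root cap marker of the list had a single-gene probe set. The median pooled change was 0.07, from -0.07 in the triple mutant and 0.46 in the quadruple. AGL42, a MADS-box gene of the quiescent centre, was at -0.63 and 0.70 (limma adjusted p = 0.00149 for the difference between the mutants). Organ polarity genes (7), cell cycle genes (8) and histones (7) had no called gene and none with the arrays apart.

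**Figure D5:**
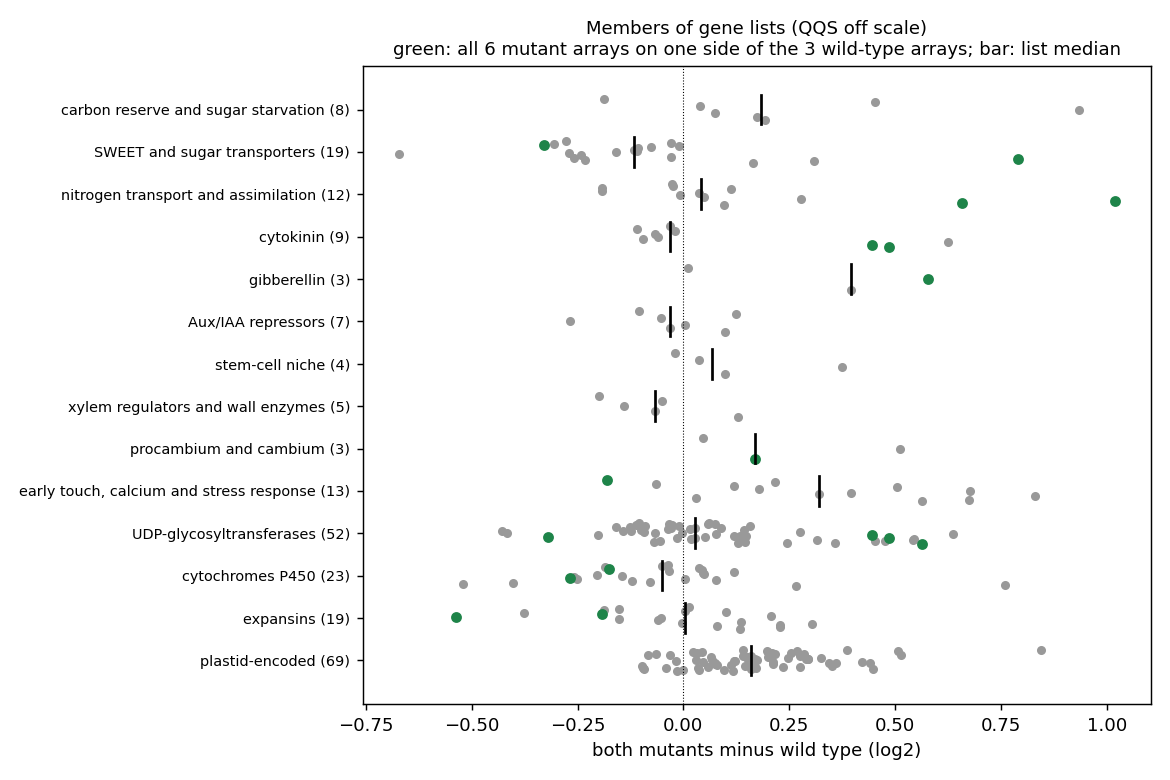
Pooled change (log2) of each measured member of 14 gene lists, with the number of measured genes in brackets; green points have all 6 mutant arrays on one side of the 3 wild-type arrays, and black bars are list medians. SWEET2 lies at 0.79 while the median of its list is -0.12, and no plastid-encoded gene is green. QQS, at 6.22, is off scale.

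Markers of leaf and cotyledon tissue were measured by a photosynthesis list of 25 genes, of which none was called and none had the arrays apart. In both mutants 17 were higher and 5 lower, with a median of 0.15, and the list's array means were 6.99 to 7.29 in wild type, 7.19 to 7.28 in triple and 7.12 to 7.30 in quadruple arrays. The 5 lower genes, PSAN, PSBW, RCA, PSAE-1 and PSBY, are all of the list's nuclear genes; the rest are plastid-encoded. The nuclear genes averaged 6.26 on wild-type array 3, against 4.79 and 4.66 on the other wild-type arrays and 4.60 to 4.94 on the mutant arrays. Their lowest limma adjusted p was 0.477. RCA, rubisco activase, read 4.55, 4.68 and 6.51 in wild type. Of 69 plastid-encoded genes, which include those of the photosynthesis list, none was called and none had the arrays apart. In both mutants 52 were higher and 4 lower, with a median of 0.16. Their mean was 8.40, 8.05 and 7.90 on the wild-type arrays, lowest on array 3, and 8.15 to 8.48 on the mutant arrays. No share over all loci is set beside these counts of direction. Both mutants were compared with the same 3 wild-type arrays, so their directions are not independent. Without wild-type array 3, 4 of the 25 shared changes (PHV, QQS, AT2G32560 and the low probe set at -1.83) were still called, and the others, SWEET2, bZIP44, AT5G12050 and AT5G17340 among them, were not. Such losses were not particular to array 3. All of these named genes were also lost without wild-type array 2, and SWEET2 was lost in 7 and bZIP44 in 8 of the 9 fits without 1 array.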

How the data were processed

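The log2 values of 9 Affymetrix ATH1 arrays were used as deposited. They were made with Affymetrix Expression Console and RMA, and limma is also named, per the submitters' processing notes; versions are not given in the sources. RMA corrects background, normalizes and summarises probes, so a change is relative to the array's other transcripts. Of 22810 probe sets 64 Affymetrix controls were left out. In the platform annotation 13513 probe sets have 1 gene, 503 several and 8730 are not listed, which leaves those unnamed here; symbols were updated to the RefSeq annotation of TAIR10.1, with 77 unmatched. Arrays were grouped by their genotype labels, and all columns were used. The labels do not say how seedlings were divided between replicates, so p-values measure the spread between these samples, which may be partly technical.

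limma 3.58.1 in R 4.3.3 fitted 1 mean per genotype over 9 arrays (6 residual degrees of freedom) with empirical Bayes moderation. Intervals are 95%, and simulated data were used to check the fit. Precision is limited by 3 arrays per genotype. Named genes were PHV, IAA20 and IAA30, then in each direction up to 15 genes: the shared changes with 1 gene, ranked by the smaller of both mutants' changes, filled up with the lowest p values among genes whose arrays were apart, and up to 4 called members of each list. Other list members are examples chosen after their values were seen. Of several probe sets of 1 gene the brightest stood for it. The comparison, the rule and the gene lists were chosen with earlier results of these data known. Alternatives covered normalization, a filter at a mean of 5, the variance model, array weights, 1 probe set per locus, a 2-fold minimum, stricter sharing rules, a replicate block and leaving out each array. No sequences or coordinates are given, since the array's genome build is not given in the sources and no sequence table was used.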

Additional observations from a re-analysis of the deposited data

Results flagged for a closer look

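For 10 named genes the quadruple and triple mutants differed from each other when that difference itself was tested (limma, Benjamini-Hochberg adjusted over all probe sets; values are quadruple minus triple on the log2 scale). Of the shared changes, QQS differed by -1.998 (adjusted p = 0.0204), AT2G41380 by -1.15 (0.00180), AT5G12050 by -0.98 (0.0111) and PHV by 0.40 (0.0405); in all 4 the triple mutant lay farther from wild type. Of the called genes that were not shared, a selection that itself favours such a difference, AT5G56380 differed by 2.51 (adjusted p = 4.11e-07), AT5G55790 by 1.55 (2.46e-04), AT4G39970 by 1.10 (0.00136) and AT4G09760 by -2.47 (2.38e-04). IAA20 differed by 0.74 (adjusted p = 0.00759) with the mutants on opposite sides of wild type, and DL1B by 0.48 (0.0111), from -0.62 in the triple mutant and -0.14 in the quadruple.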

How the results depend on the processing

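The counts moved with most settings. Of 599 named-gene settings 10 turned the direction, all for IAA20 and IAA30; most other named genes were chosen with separated arrays, which fixes their direction when an array is left out, and several settings leave the log2 change as it is. Counts below are called (higher, lower), then shared (higher, lower), then shared changes that differed between the mutants; they compare with 37 (31, 6), 25 (22, 3) and 9. A variance trend with robust estimation gave 45 (37, 8), 31 (26, 5) and 8. A mean log2 of at least 5 gave 28 (22, 6), 19 (16, 3) and 10. Quantile normalization gave 23 (15, 8), 17 (11, 6) and 8, with 65.2% of calls higher against 83.8%. Median centring, which moved the median pooled change to -0.0951, gave 15 (7, 8), 12 (6, 6) and 7, with 46.7% higher. Array weights gave 17 (14, 3), 12 (10, 2) and 8. Using 1 probe set per locus gave 14 (10, 4), 10 (9, 1) and 4, with fewer probe sets tested. A 2-fold minimum gave 8 (6, 2) and 6 (4, 2), 1 mean for the 6 mutant arrays gave 7 (5, 2) and 7 (5, 2), and the larger of the 2 p values gave 4 shared (2, 2). Beyond fewer probe sets or a stricter rule, the cause was not tested.

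Over the 9 fits without 1 array, calls ranged from 4 to 307 (higher 1 to 180, lower 3 to 127), shared changes from 3 to 286 (higher 1 to 162, lower 2 to 124) and differing shared changes from 1 to 24. Of the 16 named genes that passed, 3 (PHV, QQS and AT5G56380) did so in all 9 fits, and 13 were lost in at least 1. AT5G12050 was lost without wild-type array 2 and without array 3 (adjusted p up to 0.0700). IAA30 was at -0.09 after quantile normalization, -0.0902 after median centring and -0.0306 with array weights, and from -0.124 to 0.196 without 1 array; IAA20 ranged from -0.137 to 0.0511.

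With the replicate number as a replicate block there were 329 calls (285, 44), 145 shared changes (126, 19) and 30 that differed between the mutants; all 37 calls and all 25 shared changes remained, and 10 of the 20 named genes that did not pass were called. The arrays share only a number: deviations of same-numbered arrays correlated between 0.0427 and 0.515, with 8 of 9 pairs over 0.1, although all 9 arrays correlated best with their own number.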

Other observations

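Enzyme families held no called member, which is no result about them at the 0.12% of all loci called; 4.04% of all loci had the arrays apart. Of 52 UDP-glycosyltransferases, 3 were higher and 1 lower with the arrays apart, and the median was 0.03; UGT73B4 was at 0.56 (limma adjusted p = 0.0828) with the arrays apart. UGT73C7 was at 0.64 (limma adjusted p = 0.0597) with overlapping arrays. Of 23 cytochromes P450, 2 had the arrays apart, both lower, with a median of -0.05. Of 19 expansins, which loosen the cell wall, 2 had the arrays apart, both lower, among them EXPA16 at -0.54 (limma adjusted p = 0.210). The xyloglucan-modifying gene XTH18 was at 1.71 in the triple mutant and -0.18 in the quadruple.

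Of 13 genes of the early touch, calcium and stress response list none was called, and 1 had the arrays apart, on the lower side. The list's median was 0.43 in the triple mutant and -0.03 in the quadruple. PUB22, a ubiquitin ligase of immune signalling, was at 1.00 in the triple mutant and 0.35 in the quadruple, with a pooled 0.68 that did not pass (limma adjusted p = 0.189). The glutathione S-transferase GSTL3 at 0.54 (0.147), the beta-glucosidase BGLU46 at 0.56 (0.168) and the oleosin OLEO3, an oil-body protein, at -0.49 (0.153) had the arrays apart and did not pass either.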
